A study of Mus musculus with 16 samples.

Results

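Microglia are the resident macrophages of the brain, and 31 genes that mark them or that they switch on were followed in the brain of old male mice given the peptide adropin or its diluent. The genes were picked by name from the 40481 genes of the deposited count table, and all 31 were found there. They were 24 homeostatic genes, expressed by microglia at rest, and 7 activation genes (Cst7, Itgax, Lpl, Spp1, Cd68, Axl and Clec7a), which microglia express more highly in old or diseased tissue. After a filter that kept genes with over 1 CPM (the count of a gene scaled to the same library total in every mouse) in at least 7 mice, 28 of the 31 were tested among 14949 genes. All 24 homeostatic genes passed. Of the activation genes, 4 passed (Lpl, Spp1, Cd68 and Axl) and 3 did not (Cst7, Itgax and Clec7a).

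Both groups were male C57BL/6J mice aged 18 months, with no transgene. The adropin group (8 mice) received adropin(34-76), the secreted part of the peptide, by daily intraperitoneal injection at 90 nmol/kg/d, and the saline group (8 mice) received the diluent, saline with a small amount of albumin. Injections began 2 weeks before behavioral tests and went on through them, and the RNA came from a subset of the mice tested. Polyadenylated RNA of the brain was sequenced, 1 library per mouse, with 35026503 to 70314050 counts per library. Mice are named here as their labels number them (mouse 1_3), and the labels do not say what these numbers mean. No young group was sequenced, so that the values describe treatment in old mice and not aging.

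Microglia survive through the receptor CSF1R, which binds CSF1 and IL34, and they sense neurons through CX3CR1, the receptor of neuronal fractalkine (CX3CL1), and through purinergic receptors such as P2RY12. TREM2 binds lipids and cell debris and signals through the adaptor TYROBP. On contact with debris or plaques, microglia lower several of the homeostatic genes and raise genes of phagocytosis and lipid handling, a change that depends in part on TREM2. In bulk tissue, fewer microglia and less RNA per microglial cell cannot be told apart.

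The upstream sequences of 4 homeostatic genes are shown because these genes carry the results that follow: C1qb and C1qc, neighbors on chromosome 4 that were both highest in the same mouse of each group, and Cx3cr1 and Fcrls, which had the lowest p-values of the set. Each is the 250 bases before the RefSeq transcript start, from GRCm38.p6, on the strand of the gene, 5′ to 3′. Capitals mark the letters AGGAAGT or their reverse complement ACTTCCT, the core of the element bound by PU.1, the factor that specifies macrophages.
C1qb (chr4:136886201-136886450, minus strand): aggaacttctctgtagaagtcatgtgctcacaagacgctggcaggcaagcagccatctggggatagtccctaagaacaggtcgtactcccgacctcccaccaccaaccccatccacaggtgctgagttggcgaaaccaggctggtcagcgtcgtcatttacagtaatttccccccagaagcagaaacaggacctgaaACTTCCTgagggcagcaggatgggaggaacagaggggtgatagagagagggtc
C1qc (chr4:136892915-136893164, minus strand): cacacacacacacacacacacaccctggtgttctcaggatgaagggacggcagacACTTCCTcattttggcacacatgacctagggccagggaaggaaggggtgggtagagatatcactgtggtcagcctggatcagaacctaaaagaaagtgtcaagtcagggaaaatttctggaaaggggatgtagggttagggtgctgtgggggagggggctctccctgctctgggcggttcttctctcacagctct
Fcrls (chr3:87263525-87263774, minus strand): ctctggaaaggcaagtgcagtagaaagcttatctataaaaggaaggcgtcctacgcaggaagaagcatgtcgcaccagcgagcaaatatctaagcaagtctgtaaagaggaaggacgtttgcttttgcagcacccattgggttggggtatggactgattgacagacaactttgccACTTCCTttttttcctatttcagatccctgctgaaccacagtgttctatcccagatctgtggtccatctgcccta
Cx3cr1 (chr9:120068297-120068546, minus strand): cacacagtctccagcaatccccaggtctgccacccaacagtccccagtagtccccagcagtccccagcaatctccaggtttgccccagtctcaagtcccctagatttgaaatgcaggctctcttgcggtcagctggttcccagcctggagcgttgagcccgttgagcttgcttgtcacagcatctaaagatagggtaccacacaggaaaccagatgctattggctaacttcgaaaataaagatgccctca
The letters lay 53 bases before the start of C1qb, 195 bases before that of C1qc and 75 bases before that of Fcrls, and they were not in this window of Cx3cr1. RefSeq windows matched 24 of the 31 genes by symbol (29 windows, because some genes have several starts), and 7 of the 29 (24.1%) held the letters on either strand, those of Cst7, P2ry12, Fcrls, C1qb, C1qc, Spp1 and Sall1. Of the 32851 windows of all genes, 7.69% did. A match of letters is a description and not a binding site. The gene positions given below come from another annotation (GENCODE). By these, the Cx3cr1 window lies wholly inside the gene, and those of Fcrls and C1qc lie partly inside theirs. These windows are therefore upstream of the RefSeq starts only.

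Across the 28 genes tested, the brains of adropin and saline mice differed little. The edgeR quasi-likelihood test gave an unadjusted p below 0.05 for 2 of 28 genes (7.14%), Cx3cr1 and Fcrls, both higher in adropin, beside 3.99% of all 14949 genes in either direction. By direction, 1.86% of all genes were higher and 2.13% lower at this p, and 2 and 0 of the 28 microglia genes. No microglia gene passed the study's cut-off, a fold change over 1.5 with a p below 0.05 (taken here as the unadjusted p), which 0.421% of all genes passed in this edgeR fit. The study used limma and reported more genes at this cut-off, so this share is not the study's. After Benjamini-Hochberg adjustment over all genes tested 0 genes of the table were below 0.05 in edgeR (596 at the unadjusted p), and the lowest adjusted p in the table was 0.387. DESeq2 gave 2 genes of the table an adjusted p below 0.05, and 0 of them were microglia genes. A fold change of 1.5 is 0.58 on the log2 scale, and 0 of the 28 genes had an interval of 1.96 standard errors around the log2 fold change that reached it in either direction. The widest interval was that of Spp1, from -0.48 to 0.29.

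Most of the estimates were slightly above 0. Of the 24 homeostatic genes, 20 had a log2 fold change above 0 and 4 below, with a median of 0.05 and a range of -0.09 to 0.18. Of the 4 activation genes tested, 3 were above 0 and 1 below, with a median of 0.08 and a range of -0.09 to 0.09. Over all genes tested, 49.2% were above 0, the median was 0.00, and 9 in 10 genes lay between -0.22 and 0.20. The genes share the same mice and cells, so that their signs are not separate observations. The share above 0 was 83.3% of the homeostatic genes, and it was 83.3% of 6 astrocyte markers (median 0.05) and 100% of 6 neuron markers (median 0.06), so that it was not particular to microglia genes. Other lists differed, with 0% of 6 oligodendrocyte markers, 20% of 5 erythroid markers and 44.4% of 9 ligands of microglial receptors above 0. Adropin mouse 1_3 was high for most of the homeostatic genes and had the deepest library (70314050 counts, beside a median of 41190462). Without it, 16 of 24 homeostatic genes were above 0 and the median was 0.04. Without any other single mouse 17 to 22 were, and with the trend of level with mRNA length removed (described further on) 23 were.

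**Figure D1:**
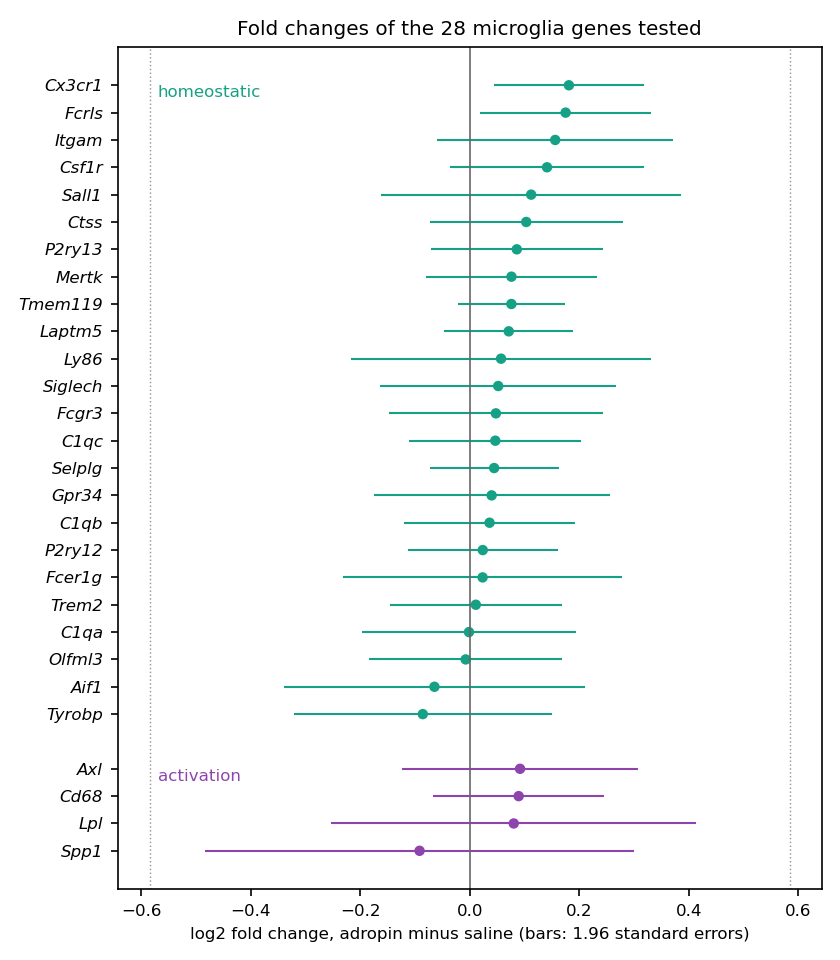
Log2 fold change (adropin minus saline, horizontal axis) of the 28 microglia genes tested, with bars of 1.96 standard errors, homeostatic genes in green and activation genes in purple. Dotted lines stand at a fold change of 1.5 in each direction, and no bar reaches them, while the bars of Cx3cr1 and Fcrls stay above 0.

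Cx3cr1 (ENSMUSG00000052336), the fractalkine receptor, lies on chromosome 9 (GRCm38 chr9:119901616-120069879, minus strand). In adropin mice its level was 48.8, 44.8, 53.1, 49.7, 48.8, 42.4, 57.3 and 56.3 TMM-normalized CPM in mice 1_3, 2_1, 2_4, 3_3, 4_1, 4_3, 5_5 and 7_4. In saline mice it was 44.1, 49.4, 46.1, 49.3, 39.2, 46.7, 40.9 and 38.2 in mice 2_3, 5_3, 5_4, 6_1, 6_2, 7_1, 8_1 and 8_3. The groups overlapped, with 6 of 8 adropin mice above the saline median and only mice 2_4, 3_3, 5_5 and 7_4 above every saline mouse. The means were 50.1 ± 5.19 and 44.2 ± 4.37 CPM (SD, n = 8 each). The log2 fold change was 0.18 ± 0.07 (SE), with an unadjusted p of 0.0225 and an adjusted p of 0.874 in edgeR's quasi-likelihood test. An exact permutation test over the 12870 ways to divide the mice (two-sided) gave p = 0.0306. The unadjusted edgeR p was above 0.05 without adropin mouse 7_4 (0.0501) and without saline mouse 6_2 (0.0535, log2 fold change 0.15).

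Fcrls (ENSMUSG00000015852), an Fc receptor-like scavenger receptor that separates microglia from infiltrating monocytes in mice, lies on chromosome 3 (GRCm38 chr3:87250758-87263738, minus strand). In adropin mice its level was 25.2, 19.3, 20.7, 21.2, 20, 18.6, 19.5 and 21.5 TMM-normalized CPM, in the same order of mice as for Cx3cr1. In saline mice it was 19.4, 18.6, 17.7, 23.4, 18.2, 16.8, 15.6 and 17.4. All 8 adropin mice were above the saline median of 18.0, while saline mouse 6_1 was above all adropin mice except 1_3. The means were 20.8 ± 2.05 and 18.4 ± 2.31 CPM (SD, n = 8 each), and the log2 fold change was 0.17 ± 0.08 (SE), with an unadjusted p of 0.0393 and an adjusted p of 0.874 in edgeR's test. The exact permutation test (two-sided) gave p = 0.0368. The unadjusted p stayed below 0.05 in 7 of the 16 fits that left out 1 mouse, with log2 fold changes of 0.13 to 0.23. It was above 0.05 without any one of adropin mice 1_3, 2_4, 3_3 and 7_4 and saline mice 5_4, 6_2, 7_1, 8_1 and 8_3, and the log2 fold change was 0.13 without mouse 1_3.

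Csf1r, the receptor on which microglial survival depends, had the third lowest p. Its level was 102, 79.4, 88.0, 73.2, 82.3, 64.1, 83.7 and 84.6 TMM-normalized CPM in the adropin mice and 79.6, 87.5, 66.4, 83.1, 73.3, 75.2, 70.7 and 60.0 in the saline mice, in the order given for Cx3cr1. Mouse 1_3 was the highest, and the other adropin mice lay almost wholly within the saline range. The means were 82.1 ± 11 and 74.5 ± 8.95 CPM (SD, n = 8 each). The log2 fold change was 0.14 ± 0.09 (SE), with an unadjusted edgeR p of 0.123 and an adjusted p of 0.874. Without adropin mouse 4_3, the lowest of its group, the unadjusted p was 0.0317, and without saline mouse 5_3 it was 0.0488. In these fits 9.67% and 6.56% of all genes had an unadjusted p below 0.05, beside 3.99% with all mice. Exons of Csf1r and of Hmgxb3 on the other strand share 873 bases in the annotation, so that their reads could be mixed if counting did not use strand.

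**Figure D2:**
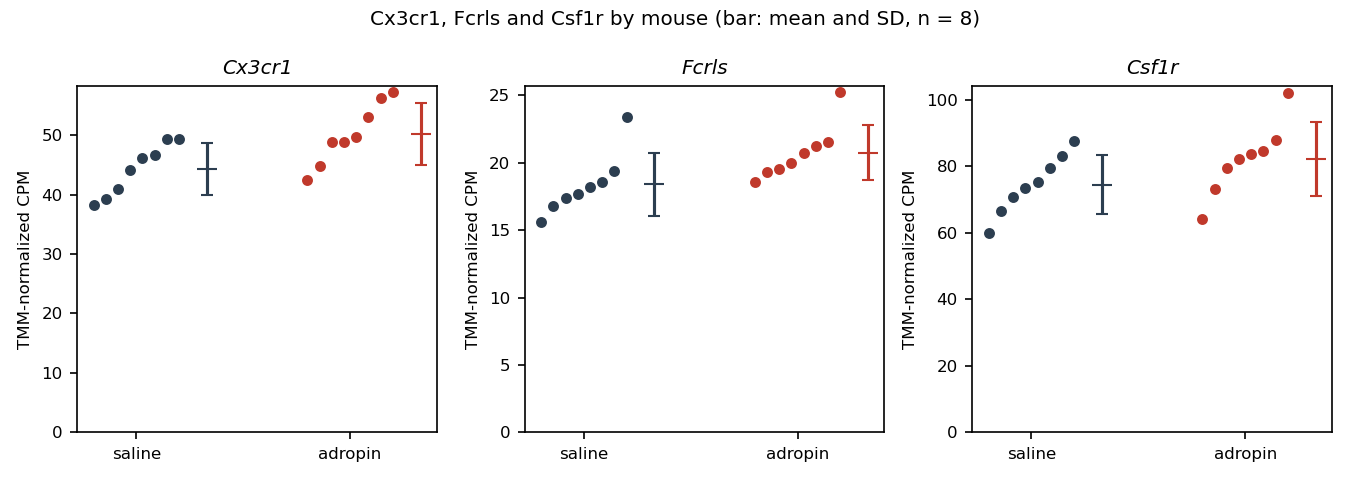
TMM-normalized CPM of Cx3cr1, Fcrls and Csf1r in each mouse (vertical axes start at 0), with 8 saline mice in dark and 8 adropin mice in red and the mean and SD at the right of each group. The groups overlap for all 3 genes, and mouse 1_3 is the highest point of Fcrls (25.2) and Csf1r (102).

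The other sensing receptors of resting microglia differed less. P2ry12, which senses ATP and ADP and guides microglial processes to injury, was at 22.7 to 28.7 CPM (median 24) in adropin and 19.6 to 27.0 (median 24.2) in saline mice. Its log2 fold change was 0.02 ± 0.07 (SE). Tmem119, a membrane protein used to tell microglia from other macrophages, was at 23.5 to 27.0 CPM (median 25.2) in adropin and 20.6 to 26.2 (median 24.1) in saline mice, with a log2 fold change of 0.08 ± 0.05. The groups overlapped for both genes. The second ADP receptor, P2ry13, had a log2 fold change of 0.09 ± 0.08, the lysophospholipid receptor Gpr34 0.04 ± 0.11, the sialic acid-binding Siglech 0.05 ± 0.11 and Selplg, the P-selectin ligand, 0.04 ± 0.06. Unadjusted edgeR p-values of these 6 genes were 0.181 to 0.724. Sall1, the transcription factor that maintains microglial identity, had a log2 fold change of 0.11 ± 0.14 and an adjusted p of 0.882 in edgeR, and was 0.03 without saline mouse 5_4 and 0.19 without adropin mouse 4_3.

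Trem2 and its adaptor Tyrobp had estimates near 0 or below it. Trem2 was at 13.4 to 17.7 CPM (median 15.8) in adropin and 12.7 to 19.1 (median 15.5) in saline mice, and Tyrobp at 9.67 to 15.0 (median 13.2) and 11.4 to 18.5 (median 12.2). The groups overlapped for both. For Tyrobp 3 adropin mice lay below every saline mouse and 3 saline mice above every adropin mouse, while the medians ran the other way. The highest saline mouse of both genes was 5_4. The log2 fold changes were 0.01 ± 0.08 for Trem2 and -0.09 ± 0.12 for Tyrobp, with edgeR p-values, unadjusted, of 0.894 and 0.466. Fcer1g, the gamma chain through which Fc receptors signal, had a log2 fold change of 0.02 ± 0.13, and the Fc receptor Fcgr3 had 0.05 ± 0.10. Without adropin mouse 1_3 these turned to -0.04 and -0.03. Itgam (CD11b), the alpha chain of complement receptor 3, had 0.16 ± 0.11 with an unadjusted edgeR p of 0.181 and was above the saline median in 7 of 8 adropin mice. Its exons share 3450 bases with a predicted gene on the same strand, Gm49368, so that its count is uncertain. Without mouse 1_3 its log2 fold change was 0.09.

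The 3 chains of complement C1q, the starter of the classical pathway and a tag for synapses that microglia remove, were the most abundant microglia mRNAs per length. Their genes lie side by side on the minus strand of chromosome 4 (GRCm38), C1qb at chr4:136880129-136886187, C1qc at chr4:136889804-136893065 and C1qa at chr4:136895917-136898803. C1qa was at 47.1 to 72.6 CPM (median 62.3) in adropin and 51.5 to 73.2 (median 58.1) in saline mice. C1qb was at 44.0 to 63.7 (median 49.6) and 43.0 to 57.2 (median 50.1), and C1qc at 46.7 to 68.7 (median 53.5) and 48.9 to 63.3 (median 52.4). Each chain was highest in mouse 1_3 among adropin mice and in mouse 5_4 among saline mice. The log2 fold changes were 0.00 ± 0.10, 0.04 ± 0.08 and 0.05 ± 0.08, with unadjusted edgeR p-values of 0.988, 0.656 and 0.569.

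Among the remaining homeostatic genes, the lysosomal protease Ctss was at 51.5 to 88.7 CPM in adropin and 51.5 to 61.2 in saline mice. Its log2 fold change of 0.10 ± 0.09 rested on mouse 1_3, and without that mouse it was 0.01. The lysosomal membrane protein Laptm5 had a log2 fold change of 0.07 ± 0.06, the TAM receptor Mertk, which takes up dying cells and is also expressed by astrocytes, had 0.08 ± 0.08, and Ly86, a partner of a Toll-like receptor homolog, had 0.06 ± 0.14. The secreted protein gene Olfml3 had -0.01 ± 0.09, and Aif1 (IBA1), the actin-bundling protein used to stain microglia, had -0.06 ± 0.14. None of these 6 genes had an unadjusted edgeR p below 0.236.

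**Figure D3:**
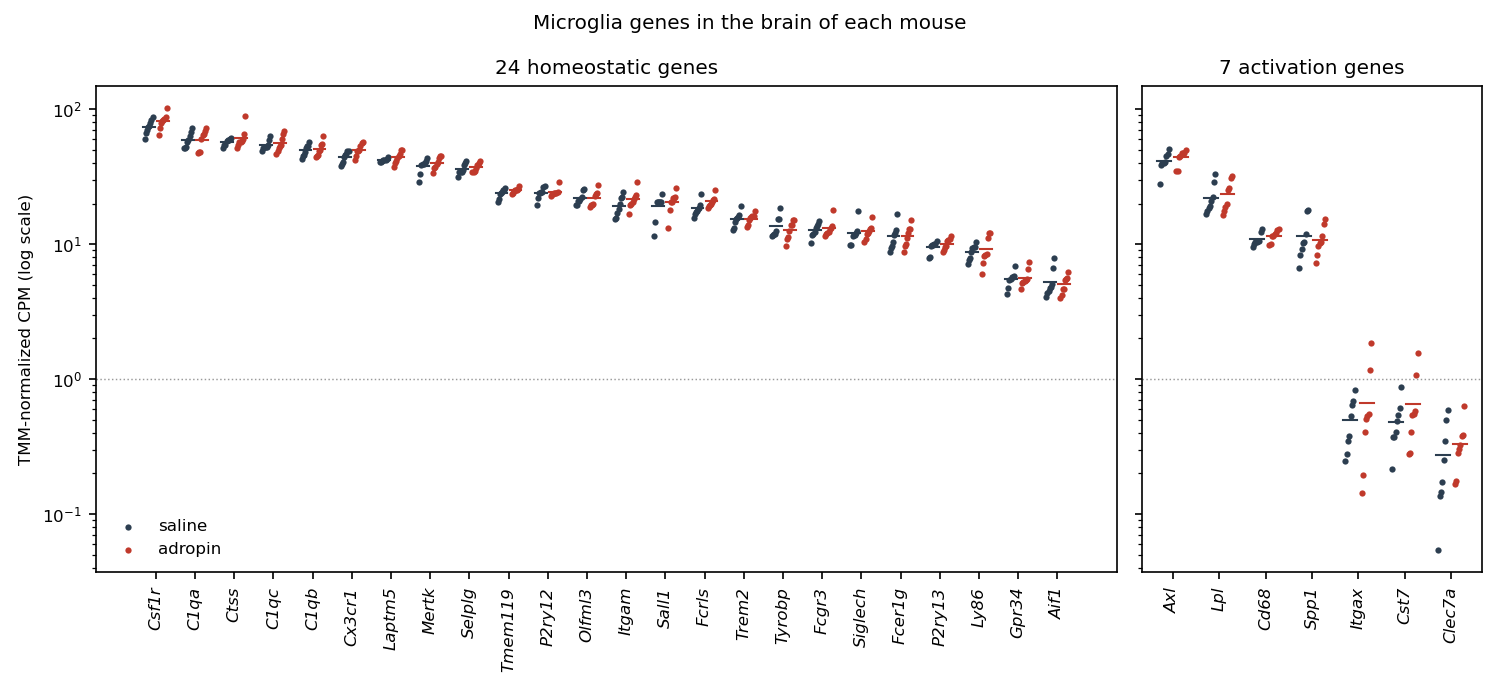
TMM-normalized CPM (log axis) of the 24 homeostatic and 7 activation genes, ordered by mean level, with a point for each of 8 saline (dark) and 8 adropin (red) mice and a line at each group mean. The 2 colors overlap for every gene, and Cst7, Itgax and Clec7a lie mostly under the dotted line at 1 CPM.

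The activation genes fell into 2 ranges of abundance. Divided by the length of the main mRNA, Axl stood at 9.98, Cd68 at 9.10, Spp1 at 7.40 and Lpl at 5.54 CPM per kb, whereas Cst7 stood at 0.579, Clec7a at 0.428 and Itgax at 0.144. The homeostatic genes stood between 2.67 (Gpr34) and 57.2 CPM per kb (C1qa), so that the 3 low genes were under each of them. Axl, Lpl and Spp1 are also expressed by other brain cells, Axl by blood vessel cells and astrocytes, Lpl by some neurons and oligodendrocyte precursors and Spp1 by some neurons and vessel-associated cells, whereas Cst7, Itgax and Clec7a are close to specific for activated microglia and other myeloid cells in brain.

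Axl, a receptor of the GAS6 ligand that clears debris, was at 34.8 to 50.0 CPM (median 46.2) in adropin and 27.8 to 50.5 (median 40.2) in saline mice, with a log2 fold change of 0.09 ± 0.11. Cd68, a lysosomal glycoprotein, was at 9.86 to 13 (median 11.7) and 9.47 to 13 (median 10.5), with a log2 fold change of 0.09 ± 0.08. Both had 6 of 8 adropin mice above the saline median, and the groups overlapped, with nearly the same range in both for Cd68 and a wider one in saline for Axl. Lpl, lipoprotein lipase, was at 16.5 to 32.2 CPM (median 22.5) in adropin and 16.7 to 33.2 (median 20.1) in saline mice. Spp1, the secreted protein osteopontin, was at 7.30 to 15.3 (median 10.2) and 6.62 to 18.0 (median 10.3). Exons of Spp1 share 309 bases with a predicted gene on the same strand, Gm42793, so that its count is uncertain as well. The log2 fold changes were 0.08 ± 0.17 for Lpl and -0.09 ± 0.20 for Spp1. These standard errors were about 2 times the median of 0.0883 over the 28 genes, and the Spp1 value turned to 0.03 without saline mouse 8_3 and to 0.02 without saline mouse 2_3. The Lpl value was 0.01 without adropin mouse 3_3 and 0.19 without saline mouse 5_4. Unadjusted edgeR p-values of the 4 genes were 0.270 to 0.646.

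Cst7, an inhibitor of lysosomal proteases, Itgax (CD11c) and the beta-glucan receptor Clec7a had 8 to 73, 6 to 79 and 2 to 27 counts per library. All 3 were highest in adropin mouse 7_4, at 1.55, 1.86 and 0.630 TMM-normalized CPM. Mouse 1_3 came next for Cst7 (1.08) and Itgax (1.17). In the other 6 adropin mice Cst7 was at 0.276 to 0.578 and Itgax at 0.142 to 0.553, and in saline mice at 0.215 to 0.867 and 0.249 to 0.823. Clec7a was at 0.166 to 0.384 in the adropin mice other than 7_4 and at 0.0539 to 0.585 in saline mice. Thus 1 or 2 adropin mice lay above every saline mouse for each of these genes and the rest did not. With no filter on low counts, edgeR gave log2 fold changes of 0.44, 0.44 and 0.25 for Cst7, Itgax and Clec7a, with unadjusted p-values of 0.221, 0.303 and 0.530 and an adjusted p of 0.742 or more.

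**Figure D4:**
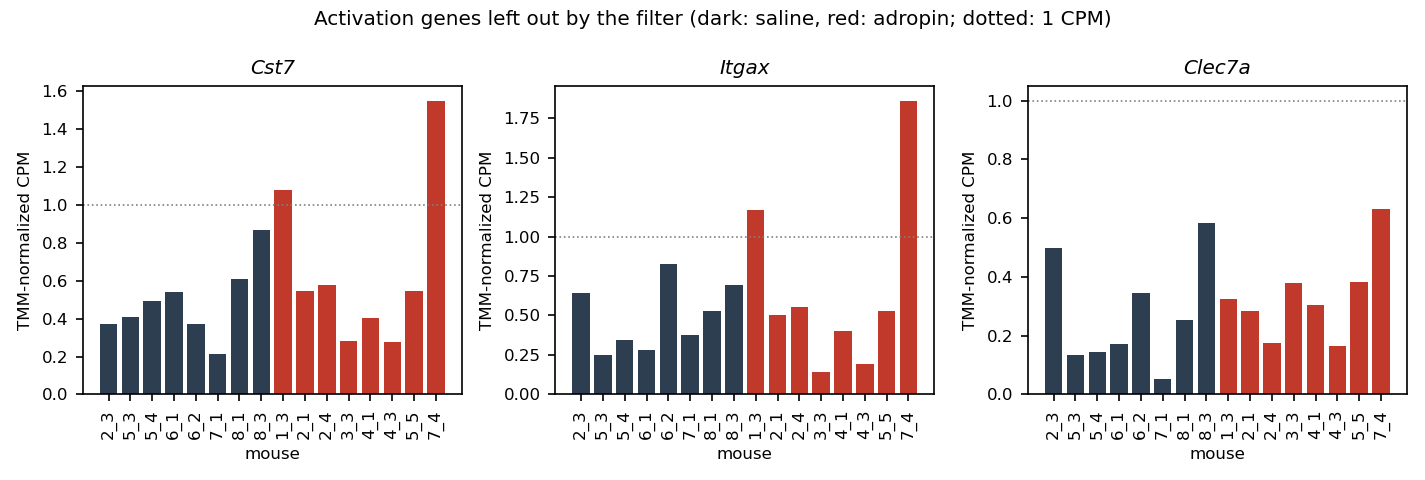
TMM-normalized CPM of Cst7, Itgax and Clec7a in each mouse, saline bars in dark and adropin bars in red, with a dotted line at 1 CPM. Adropin mouse 7_4 has the highest bar for all 3 genes (1.55, 1.86 and 0.630), and mouse 1_3 the next for Cst7 and Itgax.

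Single mice stood high or low for many of the homeostatic genes at once. In adropin mouse 7_4, 21 of the 24 homeostatic genes were above their own mean over the 16 mice, and in adropin mouse 1_3, 19 were. In saline mice 6_2, 7_1 and 8_1 only 5 were, and in adropin mouse 2_1 only 6. Over the groups the number ran from 6 to 21 in adropin mice (median 13.5) and from 5 to 18 in saline mice (median 10.5). The summed level of the 24 genes was 646 to 833 CPM (median 698) in adropin and 625 to 714 (median 681) in saline mice. That of the 7 activation genes was 86.6 to 99.2 and 80.6 to 96.9 CPM.

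The microglia genes also split by the length of their mRNAs, a pattern seen after the values were known. The 14 genes with a main mRNA under 2.11 kb (among them Tyrobp, Fcer1g, Aif1, Trem2 and the C1q chains) and the 14 longer ones (among them Csf1r, Itgam, Mertk, Axl and Sall1) moved apart in several mice. In saline mouse 5_4 Tyrobp was at its highest, 18.5 CPM, and Sall1 at its lowest, 11.4, while in adropin mouse 2_4 Tyrobp was at its lowest, 9.67, and Sall1 at its highest, 26.3. Taking each gene relative to its own mean, the median of the shorter genes less that of the longer was 0.24 (log2) in saline mouse 5_4, 0.35 in saline mouse 8_3 and 0.19 in adropin mouse 4_3, and -0.29 in adropin mouse 2_4. The same difference over the 4816 shorter and 10126 longer genes of the table was 0.36, 0.26, 0.22 and -0.20 in those mice. The microglia genes and the table had opposite signs in adropin mice 1_3 (0.07 and -0.11) and 7_4 (0.10 and -0.03). For the microglia genes it ran from -0.29 to 0.19 (median -0.05) in adropin and from -0.18 to 0.35 (median 0.00) in saline mice, and over all genes from -0.20 to 0.22 (median -0.10) and from -0.14 to 0.36 (median 0.00). In a fit, chosen after seeing the data, that removed the trend with mRNA length from each library, the log2 fold changes were 0.16 for Cx3cr1, 0.19 for Fcrls and 0.15 for Cd68. Their unadjusted edgeR p-values were 0.0275, 0.0254 and 0.0321 and their adjusted p was 0.944, and 4.48% of all genes had an unadjusted p below 0.05 in that fit. The values of Tyrobp and Aif1 turned to 0.04 each in that fit, and that of C1qa, just below 0 before, to 0.07.

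**Figure D5:**
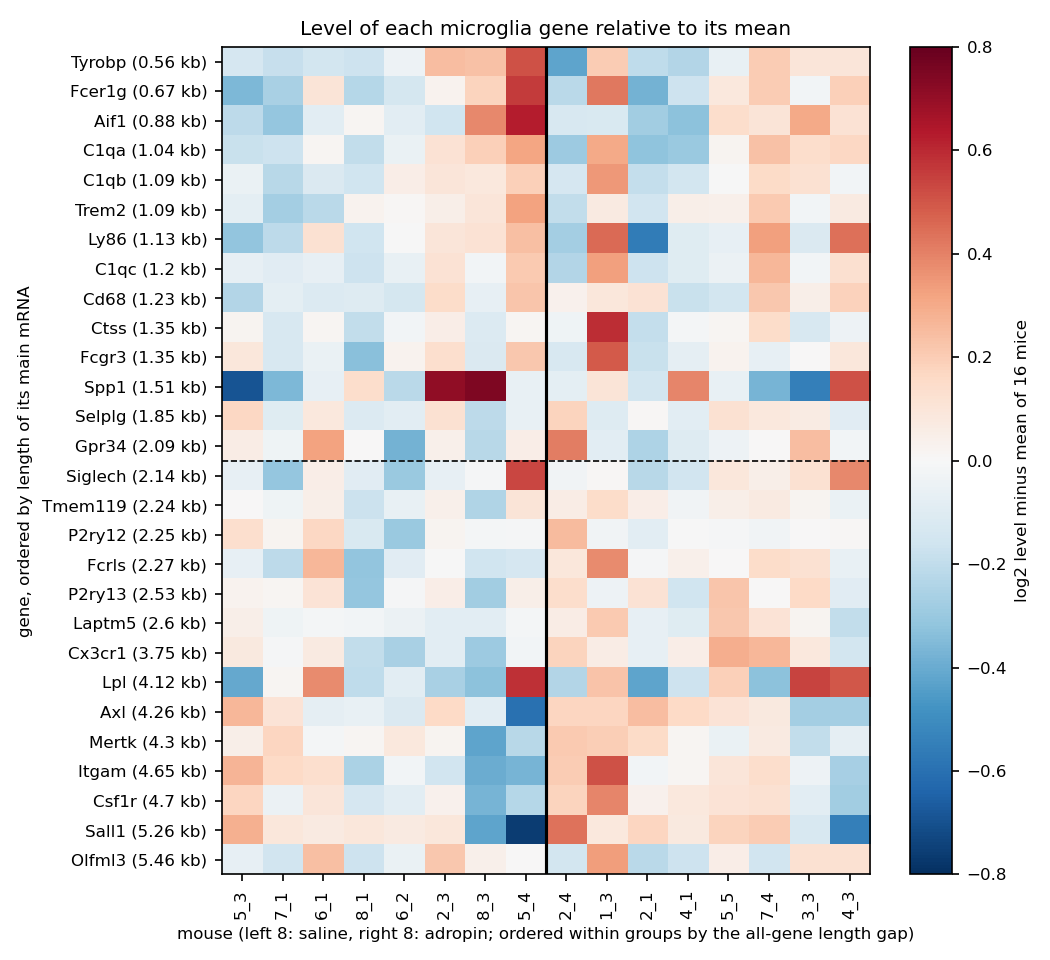
Log2 level of the 28 tested microglia genes (rows, ordered by mRNA length with the shortest on top, dashed line at 2.11 kb) in each mouse (columns, saline left and adropin right of the line) relative to each gene's mean over the 16 mice. Red short genes over blue long genes mark saline mice 5_4 and 8_3 and adropin mouse 4_3, the reverse marks adropin mouse 2_4, and adropin mouse 1_3 is red for most genes of either length.

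Genes that act around these were counted from lists chosen with earlier results known. Of 9 ligands of microglial receptors, 0 had an unadjusted edgeR p below 0.05, and the log2 fold changes were -0.06 for Csf1, 0.09 for Il34, 0.03 for Cx3cl1 and -0.01 for Gas6. Of 9 transcription factors tested, Mef2c was higher (log2 fold change 0.21 ± 0.08) and Cebpa lower (-0.25 ± 0.10), with unadjusted edgeR p-values of 0.0135 and 0.0168 and an adjusted p of 0.874 for both, beside 1.86% of all genes higher and 2.13% lower at this p. Mef2c, at 558 CPM in saline mice, is expressed mainly by neurons in brain. Spi1, which encodes PU.1, had a log2 fold change of 0.00 ± 0.11, and Irf8 had 0.14 ± 0.09. Of 16 genes of downstream signaling and phagocytic receptors, 14 were above 0 (median 0.12) and 0 had p below 0.05. The same was 0 of 7 complement genes outside C1q (5 above 0), 0 of 13 lysosomal and lipid handling genes (7 above 0), 0 of 8 antigen presentation genes (6 above 0) and 0 of 2 inflammatory mediators that passed the filter out of 13 (0 above 0, with log2 fold changes of -0.27 for Nfkbia and -0.19 for Ptgs2). Among mediators below the filter, Nlrp3 and Il1a had 8 of 8 adropin mice above the saline median. Their means in adropin and saline were 0.868 and 0.607 CPM for Nlrp3 and 0.474 and 0.35 CPM for Il1a. The other mediators below the filter went in both directions, and none below it was tested.

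Markers of other cells were set beside these values. Border-associated macrophages share Cx3cr1, Csf1r and the C1q genes with microglia. Of 6 of their markers tested, Mrc1 (log2 fold change 0.44 ± 0.19) and Stab1 (0.23 ± 0.08) were higher in adropin. Their unadjusted edgeR p-values were 0.0280 and 0.00863, and the adjusted p was 0.874 for both. Of all genes, 1.86% were higher at an unadjusted p below 0.05. The p of Mrc1 was above 0.05 without any one of adropin mouse 4_1 and saline mice 5_3, 6_2, 7_1 and 8_1. Of the 6, 3 were above 0, and the summed level of the list was 24.5 to 34.0 CPM in adropin and 22.2 to 28.2 in saline mice. Blood leukocyte markers (1 of 9 passed the filter) summed to 2.69 to 11.9 CPM in adropin and 2.52 to 4.54 in saline mice, with 11.9 in mouse 1_3. The tissue label was checked on the 6 neuron markers, which summed to 6620 to 8080 CPM over all mice, and 0 of the astrocyte, oligodendrocyte and neuron markers (6 each) had an unadjusted p below 0.05. Of these, 5 of 6 astrocyte markers were above 0 (median 0.05), 6 of 6 neuron markers were above 0 (median 0.06) and 6 of 6 oligodendrocyte markers were below 0 (median -0.19). Of 5 erythroid markers 0 had an unadjusted p below 0.05. Of 6 endothelial and mural markers Rgs5 was lower (-0.16 ± 0.07), beside 2.13% of all genes lower at that threshold. It had an unadjusted edgeR p of 0.0345 and an adjusted p of 0.874. The unadjusted p of Rgs5 was above 0.05 without any one of adropin mice 1_3, 2_1, 3_3, 4_3 and 5_5 and saline mice 5_3, 7_1 and 8_3. All 5 choroid plexus markers tested were lower in adropin (median log2 fold change -1.31), and all 5 had an unadjusted edgeR p below 0.05 and passed the 1.5-fold cut-off, beside 3.99% and 0.421% of all genes. The sum over all 8 markers of the list reached 2480 CPM in saline mouse 8_3, and the next saline mouse had 331. The log2 fold changes were -4.07 for Ttr, -1.11 for Kl, -1.89 for Clic6, -1.31 for Sostdc1 and -1.21 for Prlr, and without mouse 8_3 they were -1.34, -0.61, -0.67, -0.33 and -0.73, with an unadjusted edgeR p below 0.05 for Kl and Prlr but not for the other 3. Of 4 cerebellum and hindbrain markers, Car8 had a log2 fold change of -1.40 with an unadjusted edgeR p of 0.0338. Of all genes, 2.13% were lower at an unadjusted p below 0.05. The Car8 value turned to 0.20 without mouse 8_3, in which Car8 was at 91.7 CPM beside a saline median of 5.33. The part of these cells in the values of the microglia genes was not tested. Without mouse 8_3 the log2 fold change of Cx3cr1 was 0.15 with an unadjusted edgeR p of 0.0483.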

How the data were processed

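The authors aligned the reads with STAR 2.5.1a1 to the mouse genome and counted them per gene with featureCounts 1.4.6-p52. The deposited counts are whole, not normalized, and strand use in counting was not given in the sources used here. A second deposited table of CPM was not used. From the counts, 276 repeated rows and 355 rRNA genes were left out. Genes with over 1 CPM in at least 7 of 16 mice were tested for adropin against saline, without covariates, by edgeR 4.0.16 (R 4.3.3) with TMM factors (0.952 to 1.03), the quasi-likelihood test and Benjamini-Hochberg adjustment over all 14949 genes. The scripts were tested on simulated data. Levels are TMM-normalized CPM. Alternatives used limma 3.58.1, DESeq2 1.42.0, exact permutation, other scalings and filters, replicate blocks, each mouse left out in turn and, chosen after seeing the data, removal of the mRNA length trend. The members and lists were chosen with earlier results of these data known. By rule, members with p below 0.05, the activation genes and core lineage, TREM2 and C1q genes were given in full, and from the other lists genes with an unadjusted p below 0.05 were named, as were 6 ligands and factors (Csf1, Il34, Cx3cl1, Gas6, Spi1, Irf8) whatever their p. Nfkbia, Ptgs2, Nlrp3, Il1a, S100a9, C4b and C3 were named after their values were seen. Gene positions and mRNA lengths came from GENCODE on GRCm38. Libraries were of separate mice, and their depth was 35026503 to 70314050 counts.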

Additional observations from a re-analysis of the deposited data

Results flagged for a closer look

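In 94 groups of 8 mice tested by Dixon's ratio, 11 held 1 mouse far from the others. The ratio flags about 1 group in 20 by chance when groups are separate and values normally distributed. These groups shared mice and genes, so that 11 cannot be set against that rate. Every such mouse was the highest of its group. Adropin mouse 1_3 stood at 25.2 CPM for Fcrls (next 21.5), 88.7 for Ctss (next 65.1), 18.0 for Fcgr3 (next 13.7) and 11.9 for the summed blood leukocyte markers (next 3.81), among which the neutrophil gene S100a9 was at 4.94 (next 0.63). Adropin mouse 7_4 stood at 0.63 CPM for Clec7a (next 0.384), 225 for the summed complement genes outside C1q (next 149) and 8020 for the summed oligodendrocyte markers (next 5100). In that mouse C4b was at 141 CPM (next 64.7) and C3 at 6.3 (next 1.53). Adropin mouse 2_4 stood at 28.7 CPM for P2ry12 (next 24.3), and saline mouse 5_4 at 17.5 for Siglech (next 12.6). Saline mouse 8_3 stood at 2480 CPM for the summed choroid plexus markers (next 331) and 489 for the summed cerebellum and hindbrain markers (next 182).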

How the results depend on the processing

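The 2 microglia genes with an unadjusted p below 0.05 (Cx3cr1 and Fcrls) became 1 with library size only and 0 to 3 when a mouse was left out, and 0 microglia genes passed the fold change or adjusted cut-offs under the alternatives run. The homeostatic median was 0.01 to 0.09 and the activation median -0.06 to 0.09 under the alternatives that kept all mice, and 0.03 to 0.08 and 0.05 to 0.10 without 1 mouse. Over the genes singly, 283 values kept their direction and side of the threshold when all mice were kept (20 turned sign, 4 lost and 1 gained an unadjusted p below 0.05), and 402 did with a mouse left out (33, 11 and 2). Signs turned for Ly86 (-0.02) and Spp1 (0.03) with quality weights, for Trem2 (-0.01) with library size only, and for Tyrobp (0.04), C1qa (0.07) and Aif1 (0.04) with the length trend removed. Leaving out 1 mouse gave -0.02 to 0.05 for P2ry12, -0.02 to 0.06 for Trem2, -0.04 to 0.05 for C1qa, -0.01 to 0.07 for C1qb, -0.11 to 0.04 for Aif1, -0.02 to 0.09 for Gpr34, -0.06 to 0.03 for Olfml3, -0.04 to 0.12 for Fcer1g, -0.03 to 0.08 for Fcgr3, -0.01 to 0.13 for Ly86 and -0.17 to 0.03 for Spp1. With quality weights 1299 of 14949 genes (8.69%) and with no filter 1902 of 30210 (6.3%) had an unadjusted p below 0.05, beside 596 of 14949 (3.99%), and leaving out mice gave 383 to 1445, while the first block gave 327. The cause was not tested.

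Pairs of mice from different groups with the same first label number had correlations of -0.27 to 0.22 (median -0.01, 5 pairs). Those with different first numbers had -0.56 to 0.72 (median 0, 59 pairs). For the second number, pairs alike had -0.56 to 0.30 (median -0.05, 17 pairs) and pairs unlike -0.45 to 0.72 (median 0, 47 pairs). Several first numbers were held by mice of a single group, so those mice did not inform the treatment value with that block. Few pairs shared a first number, so whether the numbers pair the mice was not settled. With the first number as a replicate block, 1 gene (Cx3cr1) had p below 0.05, 15 of 24 homeostatic genes were above 0, the activation median was -0.06, and the values were -0.01 for P2ry12, -0.02 for C1qb, -0.06 for C1qc, 0.05 for Aif1, -0.03 for Fcer1g, -0.13 for Fcgr3, -0.07 for Ly86, -0.11 for Lpl and -0.01 for Cd68. With the second number as a block, 0 genes did (Cx3cr1 0.10 and Fcrls 0.18, with unadjusted edgeR p-values of 0.174 and 0.0796), 15 of 24 were above 0, and the values were -0.02 for P2ry12, -0.02 for Trem2, -0.04 for Siglech, -0.03 for Gpr34 and -0.06 for Fcer1g.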
